A study of Mus musculus with 2 samples.

Results

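Counts of 8 genes that mark platelet and megakaryocyte bias among blood stem cells were measured in single cells of mouse bone marrow: Vwf, Pf4, Itga2b, Gp1bb, Gp9, Selp, Cd9 and Clu. They were taken by name as a group of genes known from this lineage, with earlier results of these data already known. They are 8 of 53273 genes that could be read from 53378 deposited gene rows. Every one of the 8 had counts in at least 3 of the 4 sorted gates, and 7 of them had counts in all 4.

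The cells came from bone marrow of C57BL/6 mice aged 8 weeks that carry the Fucci reporter, in a study concerned with quiescence of blood stem cells. Fucci mice make an orange protein, mKO2, joined to part of Cdt1, which builds up in G0 and G1, and a green protein, mAG, joined to part of geminin, which builds up in S, G2 and M. The gates were mAG+, mKO2neg, mKO2low and mKO2high, with 48 cells each. The mAG+ and mKO2neg cells made up library sample1, and the mKO2low and mKO2high cells made up library sample2. The reporter was shared by all gates, and there was no gate without it. The labels name neither the surface markers of the sort, nor the promoter of the reporter, nor the number of animals. Each gate is therefore 1 sample without replicates, and no difference below has a replicate check or a test.

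Megakaryocytes are the large marrow cells that shed platelets. They are a source of the proteins encoded here, though endothelium also makes those of Vwf, Selp and Clu. Blood stem cells share part of this programme: in mice, stem cells that express von Willebrand factor are biased towards making platelets, and CD41, the product of Itga2b, appears on a fraction of them. Of the products, von Willebrand factor (Vwf) is the adhesive glycoprotein that tethers platelets, and platelet factor 4 (Pf4, also CXCL4) and P-selectin (Selp) are a chemokine and an adhesion receptor kept in alpha granules. Itga2b encodes the alpha chain of the platelet fibrinogen receptor. Gp1bb and Gp9 encode subunits of the GPIb-IX-V complex that binds von Willebrand factor. Cd9 is a tetraspanin abundant on platelets, and Clu encodes clusterin, a secreted chaperone that platelets also store.

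The labels of the deposited rows are displaced, so each gene was read from the row of the gene just before it in GENCODE M21 order (GRCm38, the same assembly as mm10). Vwf (chr6:125546774-125686679, plus strand) was read from the row labelled Gm26728. Pf4 (chr5:90772435-90773383, plus strand) was read from the row labelled Ppbp, and Itga2b (chr11:102453297-102470122, minus strand) from the row labelled Fam171a2. Gp1bb (chr16:18620317-18622403, minus strand) was read from the row labelled 4930588K23Rik, and Gp9 (chr6:87778072-87779768, plus strand) from the row labelled Gm43904. Cd9 (chr6:125460266-125494791, minus strand) was read from the row labelled Plekhg6, and Clu (chr14:65968483-65981547, plus strand) from the row labelled Gm19222. Selp (chr1:164115264-164150026, plus strand) was read by the same rule. Under their own labels the 8 genes held 0 counts for Vwf, Pf4, Itga2b and Selp, 3 for Gp1bb, 6 for Gp9, 6 for Clu and 133 for Cd9.

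This reading was checked on genes that nearly every cell transcribes. Read with a displacement of 1 row, 76 ribosomal protein genes held 18.1% of all counts, against 0.0758% to 0.339% for the 6 other displacements of up to 3 rows tried, the deposited labels included. Actb then had 25599 counts, against 136 under its own label, and B2m had 56396, against 0. In the 200 rows around a member, protein-coding genes held 94.4% to 99.6% of the counts for 7 members and 62.5% for Selp. Under the deposited labels that share was 14.8% to 69.5%. Around Selp a displacement of 1 row the other way gave 63.5%, so this local check does not single out the row read for Selp. Of the 2087 exon bases of Gp1bb, 1938 overlap exons of Sept5 and Gm49601 on the same strand, so reads of these genes could not be told apart and Gp1bb values are uncertain. Exons of Selp and Cd9 overlap antisense genes over 624 and 218 bases, and whether strand was used in counting is not given in the sources used here.

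Of the 8 genes, 6 had a promoter sequence in the RefSeq table (GRCm38.p6, 250 bases before to 50 bases after the start of the gene): Pf4, Itga2b, Gp1bb, Gp9, Selp and Cd9. Megakaryocyte genes are known targets of GATA and ETS factors acting together, so the letters GATAA and GGAAG were searched on both strands. The 4 sequences below are printed 5′ to 3′ on the strand of the gene because they differ in those letters, with every match in capitals (TTATC and CTTCC are the same letters on the other strand). Pf4 is chr5:90772185-90772484 on the plus strand, Gp9 is chr6:87777820-87778119 on the plus strand, Itga2b is chr11:102469834-102470133 on the minus strand and Selp is chr1:164115014-164115313 on the plus strand.
Pf4: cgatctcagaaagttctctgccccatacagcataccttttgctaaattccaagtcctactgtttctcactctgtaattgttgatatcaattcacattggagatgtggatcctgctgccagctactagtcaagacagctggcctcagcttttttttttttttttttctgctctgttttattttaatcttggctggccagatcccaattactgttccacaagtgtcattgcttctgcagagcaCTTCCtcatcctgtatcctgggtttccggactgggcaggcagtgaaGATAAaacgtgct
Gp9: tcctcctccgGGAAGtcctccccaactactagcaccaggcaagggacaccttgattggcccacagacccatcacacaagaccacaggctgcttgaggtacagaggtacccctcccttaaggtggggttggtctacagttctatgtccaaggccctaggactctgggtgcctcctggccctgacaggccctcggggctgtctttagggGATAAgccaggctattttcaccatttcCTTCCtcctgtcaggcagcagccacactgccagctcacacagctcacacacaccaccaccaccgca
Itga2b: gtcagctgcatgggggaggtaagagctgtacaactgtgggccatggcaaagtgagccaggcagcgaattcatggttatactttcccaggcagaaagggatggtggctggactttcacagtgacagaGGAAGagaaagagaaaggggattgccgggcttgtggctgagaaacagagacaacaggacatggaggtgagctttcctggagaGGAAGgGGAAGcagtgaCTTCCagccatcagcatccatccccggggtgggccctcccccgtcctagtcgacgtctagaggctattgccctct
Selp: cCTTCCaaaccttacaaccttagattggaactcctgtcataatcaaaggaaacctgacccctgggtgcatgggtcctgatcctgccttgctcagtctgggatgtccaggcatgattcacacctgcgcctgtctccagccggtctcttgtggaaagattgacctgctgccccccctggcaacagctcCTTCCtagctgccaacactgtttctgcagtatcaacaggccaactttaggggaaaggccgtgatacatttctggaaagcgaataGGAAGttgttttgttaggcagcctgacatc
GATAA occurred once in the Pf4 window and once in the Gp9 window, and was not in the windows of Itga2b, Gp1bb, Selp and Cd9. GGAAG occurred in all 6, with 1 match in Pf4, 4 in Itga2b, 3 in Gp1bb, 2 in Gp9, 3 in Selp and 2 in Cd9. Over 32851 promoters of the same length, 25.4% held GATAA, 71.4% held GGAAG and 17.2% held both. A GATAA match and a GGAAG match can share bases, which none did in the printed windows, and a match is a description of the sequence only.

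Summed counts were 2791584 in mAG+ and 1608630 in mKO2neg, and 1703263 in mKO2low and 934036 in mKO2high, with medians of 45177, 24633, 26851.5 and 14510.5 counts per cell in the same order. Cells ranged from 0 to 210516 counts, so 1 mKO2high cell held none. Marker genes of blood stem cells, 11 of 11, had counts in every gate, with summed levels of 1318, 1824, 1854 and 2153 CPM (counts per 1000000 counts of the gate) in mAG+, mKO2neg, mKO2low and mKO2high. Of 10 markers of maturing megakaryocytes or platelets, 6, 7, 6 and 4 had counts in those gates, with summed levels of 320, 297, 314 and 364 CPM. Gp6, the collagen receptor of platelets, and Tubb1, their specific tubulin, were at 0 in every gate, and Mmrn1 and Nrgn held most of the list's counts. Of 8 endothelial genes, which matter because Vwf, Selp and Clu are also made by endothelium, 7, 5, 6 and 4 had counts, at 326, 257, 344 and 436 CPM, with the junction cadherin Cdh5 at 0 in every gate. Egfl7, Tie1, Emcn and Tek, which blood stem cells also express, were counted in every gate, Egfl7 at 139.7, 133, 183 and 295 CPM and Tie1 at 88.8, 44.8, 97.5 and 88.9 CPM. The part of endothelial transcripts in the levels below was not tested. Of 11 genes of G2 and mitosis, the summed level was 6677 CPM in mAG+ and 727 in mKO2neg, and 124 in mKO2low and 61.0 in mKO2high.

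The 8 genes did not follow 1 pattern over the gates. Levels are given as CPM of the summed gate with exact Poisson 95% intervals, which cover counting error only, since reads without known molecular identifiers are not independent molecules. In a summed gate, fewer expressing cells and less RNA per cell cannot be told apart, so the number of cells with a count stands beside each level.

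Vwf had 81.0 CPM in mAG+ (70.7 to 92.2) and 32.3 in mKO2neg (24.1 to 42.4), and 14.7 in mKO2low (9.5 to 21.7) and 43.9 in mKO2high (31.5 to 59.5). It was counted in 16, 9, 8 and 9 of 48 cells of these gates. The order from the highest was mAG+, mKO2high, mKO2neg and mKO2low, in which only the intervals of mKO2high and mKO2neg overlapped among neighbours. Clu had 68.4 CPM in mAG+ (59.1 to 78.8) and 27.4 in mKO2neg (19.9 to 36.7), and 22.9 in mKO2low (16.3 to 31.3) and 89.9 in mKO2high (71.7 to 111). It was counted in 18, 4, 4 and 12 of 48 cells. For Clu, mKO2high and mAG+ overlapped at the top, and mKO2neg and mKO2low overlapped at the bottom.

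In the sums Pf4 was lowest in mAG+ and highest in mKO2high, with 16.5 CPM in mAG+ (12.1 to 21.98) and 42.9 in mKO2neg (33.4 to 54.3), and 52.8 in mKO2low (42.5 to 64.9) and 187 in mKO2high (161 to 217). Of these gates, neighbours mKO2neg and mKO2low overlapped. The share of cells did not follow the level, since Pf4 was counted in 12, 9, 11 and 13 of 48 cells. A single mKO2high cell held 107 of that gate's 175 Pf4 counts, at 3882 CPM in a cell of 27566 counts. That cell had no counts of 9 of the 10 maturing megakaryocyte markers and 1 count of Nrgn. Without the largest Pf4 cell of each gate the levels were 8.38 CPM in mAG+ and 26.1 in mKO2neg, and 37.6 in mKO2low and 75.02 in mKO2high. At 5000 counts per cell, 8 Pf4 counts were left in 45 mAG+ cells and 8 in 43 mKO2neg cells, with 6 in 48 mKO2low cells and 35 in 39 mKO2high cells. Thinning does not remove the mKO2high cell at 3882 CPM, and its part of the 35 counts was not taken out. Cells with a count were then 7, 6, 4 and 10 in these gates, with overlapping intervals of the shares.

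Selp, the granule adhesion receptor, was sparse. It had 4.30 CPM in mAG+ (2.22 to 7.51) and 3.11 in mKO2neg (1.01 to 7.25), and 7.63 in mKO2low (4.06 to 13.1) and 26.8 in mKO2high (17.3 to 39.5), in 4, 3, 5 and 3 of 48 cells. The first 3 gates overlapped one another, and mKO2high rested on 1 cell with 20 of its 25 counts. Without the largest cell of each gate Selp had 2.57 CPM in mAG+ and 1.90 in mKO2neg, and 4.24 in mKO2low and 5.79 in mKO2high.

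Itga2b, the fibrinogen receptor chain, had 48.4 CPM in mAG+ (40.5 to 57.2) and 31.7 in mKO2neg (23.6 to 41.7), and 46.4 in mKO2low (36.7 to 57.8) and 93.1 in mKO2high (74.6 to 115). It was counted in 14, 11, 15 and 8 of 48 cells, so mKO2high had the highest summed level and the fewest cells with a count. The same mKO2high cell that led Selp held 72 of the gate's 87 Itga2b counts. Without the largest cell of each gate, Itga2b had 33.4 CPM in mAG+ and 30.8 in mKO2neg, and 40.4 in mKO2low and 17.4 in mKO2high, which put mKO2high last.

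The subunits of the von Willebrand factor receptor were unlike each other in detection. However, 1938 of the 2087 exon bases of Gp1bb overlap other genes on the same strand, against 0 for Gp9. The low Gp1bb counts and the limits below are therefore uncertain. Gp9 had 39.05 CPM in mAG+ (32.1 to 47.1) and 138 in mKO2neg (120.4 to 157), and 66.3 in mKO2low (54.7 to 79.8) and 99.6 in mKO2high (80.4 to 122). It was counted in 14, 21, 19 and 13 of 48 cells. In the order mKO2neg, mKO2high, mKO2low and mAG+, only the first pair overlapped. The deepest mKO2high cell, with 83162 counts, held 46 of that gate's 93 Gp9 counts. Gp1bb was counted in 1 cell each of mAG+, mKO2neg and mKO2low, with 15, 4 and 4 counts (5.37, 2.49 and 2.35 CPM). In mKO2high it was counted in 0 of 48 cells, which at a floor of 3 counts allows a share of 6.25% of cells with a count and a level of 3.21 CPM. The upper exact 95% limits were 7.40% of cells and 3.95 CPM. The partner subunit Gp1ba, which is not among the 8 genes, had 0 counts in mAG+ and 2 in mKO2neg, and 0 in mKO2low and 13 in mKO2high.

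Cd9 was the most even of the 8. It had 269 CPM in mAG+ (249.8 to 289) and 267 in mKO2neg (242 to 293), and 192 in mKO2low (172 to 214) and 272 in mKO2high (239.5 to 308). Only mKO2low did not overlap the other gates. Cd9 was counted in 41, 35, 34 and 36 of 48 cells, and no cell held more than 13.1% of a gate's Cd9 counts.

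**Figure D1:**
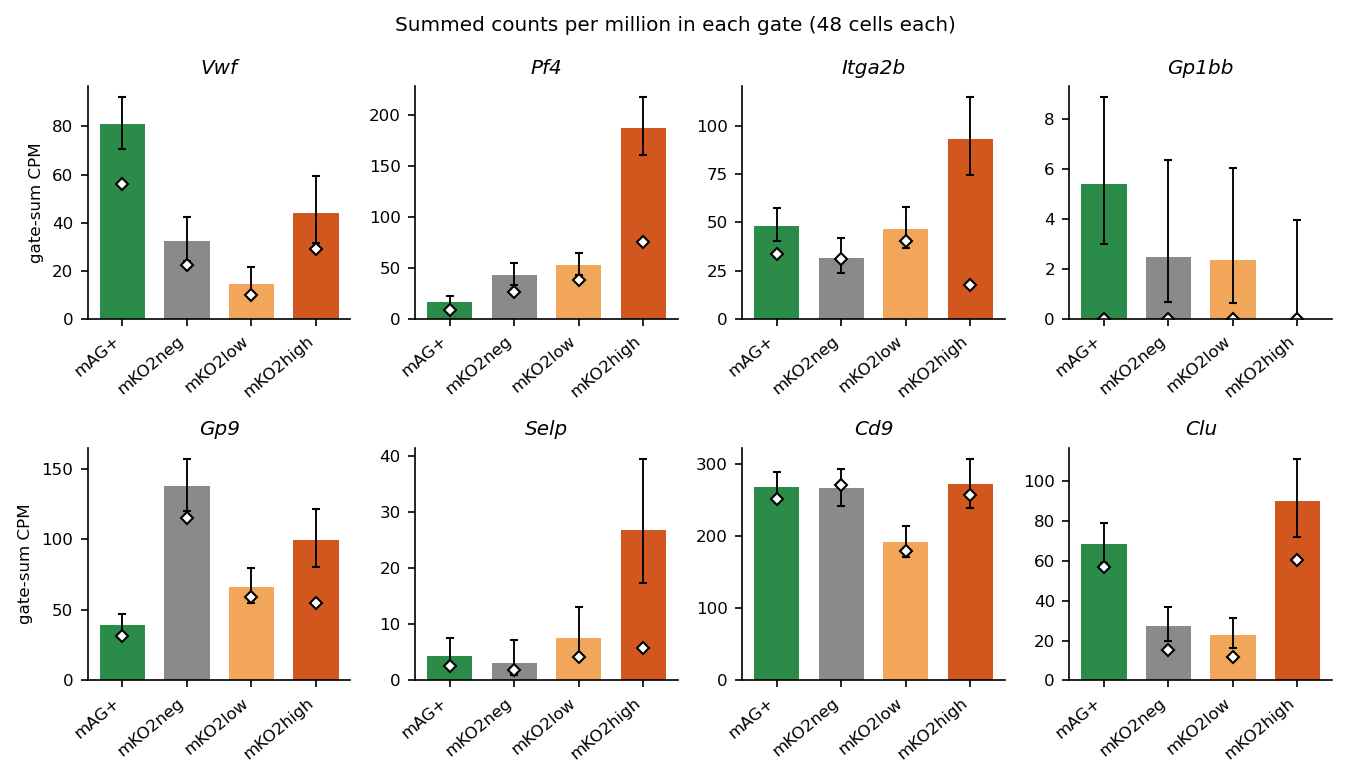
Summed CPM of each of the 8 genes (vertical axes, a scale of its own per gene) in mAG+, mKO2neg, mKO2low and mKO2high, with bars for the gate sum, lines for exact Poisson 95% intervals and open diamonds for the value without the gene's largest cell. Itga2b in mKO2high is 93.1 CPM as a bar and 17.4 CPM as a diamond, while Cd9 bars lie between 192 and 272 CPM.

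Between the mAG+ and mKO2neg gates of library sample1, Vwf and Clu were higher in mAG+ and Pf4 and Gp9 were lower. The log2 ratio of mAG+ over mKO2neg was 1.31 for Vwf (0.88 to 1.79, the exact conditional binomial 95% interval for counting error) and 1.31 for Clu (0.84 to 1.83). It was -1.36 for Pf4 (-1.95 to -0.82) and -1.81 for Gp9 (-2.17 to -1.48). Itga2b was at 0.60 (0.13 to 1.10) and Cd9 at 0.01 (-0.16 to 0.19). Gp1bb, with 1 cell in each gate, was at 0.99 (-0.54 to 3.16), and Selp at 0.42 (-1.14 to 2.33).

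All 8 genes had at least 10 counts over these gates. Past 2-fold were 2 of 8 higher and 2 of 8 lower, where 21.2% of 12115 genes with at least 10 counts were past 2-fold higher and 14.6% lower. With equal weight for each cell, none was past 2-fold higher (Vwf 0.72, Clu 0.93) and 3 were lower. The median of the 8 was 0.51, against 0.06 over all those genes, but it was -0.013 with equal weight for each cell, 0.12 without the largest cell of each gene and -0.028 at 5000 counts per cell, where 6 genes were measured. The mAG+ cells were deeper, at a median of 45177 counts against 24633 in mKO2neg. When every cell was thinned to 5000 counts and shallower cells were left out, the ratio was 0.06 for Vwf, -0.06 for Pf4, 0.77 for Clu, -1.25 for Gp9 and -0.57 for Itga2b, whose direction turned. Only Gp9 was then past 2-fold, with 10 counts in mAG+ against 24 in mKO2neg. The Vwf value at equal depth rested on 12 counts in mAG+ and 11 in mKO2neg.

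Between the mKO2low and mKO2high gates of library sample2, every gene of the 8 that could be measured was lower in mKO2low. The log2 ratio of mKO2low over mKO2high was -1.94 for Clu (-2.56 to -1.41), -1.81 for Pf4 (-2.21 to -1.45), -1.71 for Selp (-2.90 to -0.79) and -1.53 for Vwf (-2.36 to -0.83). It was -0.99 for Itga2b (-1.46 to -0.55), -0.58 for Gp9 (-0.99 to -0.17) and -0.50 for Cd9 (-0.74 to -0.26). Gp1bb had 4 counts against 0 and was under the limit of 10 counts.

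Past 2-fold were 4 of 7 genes lower and 0 higher, where 15.0% of 10901 genes were past 2-fold lower and 19.6% higher. The median of the 7 was -1.53, against 0.05 over all genes. Much of this rested on 1 mKO2high cell of 70644 counts, with 16 counts of Vwf, 72 of Itga2b, 20 of Selp, 32 of Cd9 and 32 of Clu. That cell had 46 counts of Mmrn1 and none of the other 9 maturing megakaryocyte markers. Without it, chosen after its values were seen, the ratio was 1.38 for Itga2b, 0.36 for Selp, -0.94 for Vwf, -1.37 for Clu and -1.92 for Pf4, and the median of the 7 was -0.69. Itga2b and Selp were then higher in mKO2low and the other 5 lower, of which Clu and Pf4 were past 2-fold.

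For Pf4 the ratio also depended on its own largest cells. With the largest cell of each gene left out in each gate, Pf4 was at -0.98, Clu at -2.31, Vwf at -1.49, Itga2b at 1.18 and Gp9 at 0.10. Gp9 was at 0.35 without the deepest cell of each gate. Clu was lower in mKO2low by more than 2-fold in the sums, with these cells left out and at 5000 counts per cell (-2.26), and it was counted in 4 of 48 mKO2low cells against 12 of 48 mKO2high cells.

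**Figure D2:**
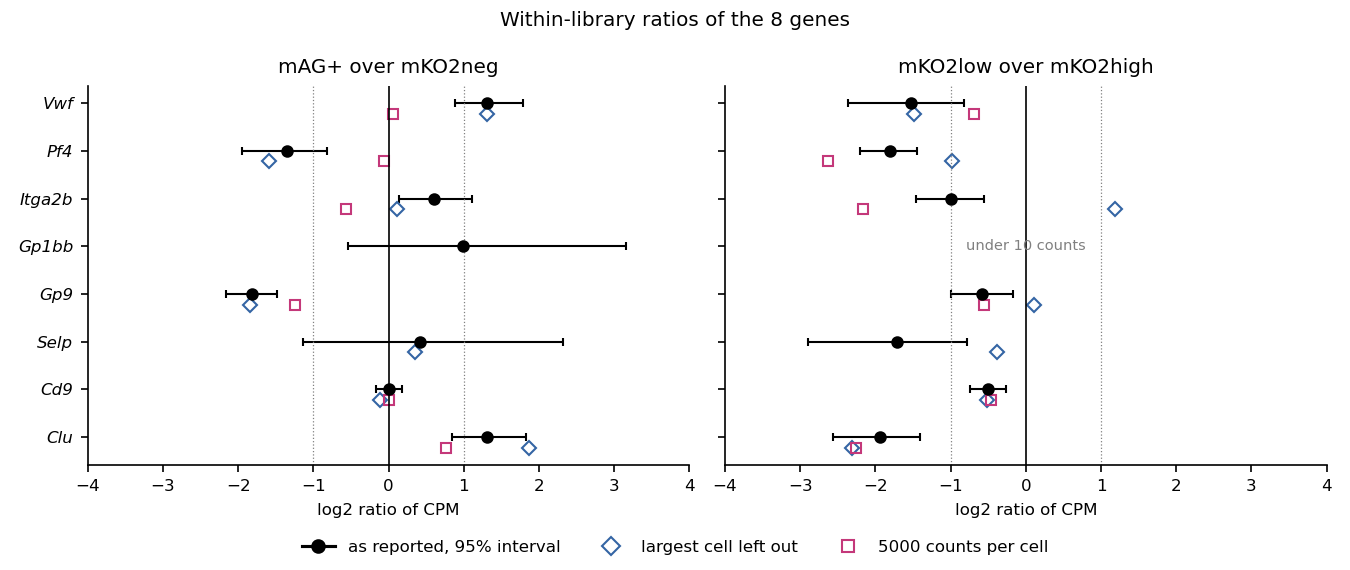
Log2 ratios of CPM (horizontal axis) of the 8 genes for mAG+ over mKO2neg (left) and mKO2low over mKO2high (right), with black points and lines for the reported value and its 95% counting interval, diamonds for the largest cell left out and squares for 5000 counts per cell. Vwf lies at 1.31 on the left and its square at 0.06, and Itga2b lies at -0.99 on the right and its diamond at 1.18.

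Across the libraries, gate and library cannot be told apart. The log2 ratio of mKO2neg over mKO2low was 1.11 for Vwf (0.42 to 1.89) and 1.05 for Gp9 (0.72 to 1.40), and -1.15 for Selp (-3.14 to 0.28). Pf4 was at -0.30, Itga2b at -0.54, Cd9 at 0.47 and Clu at 0.25. Past 2-fold were 2 of 7 genes higher and 1 lower, where 15.3% of 11375 genes were past 2-fold higher and 16.7% lower, and the median of the 7 was 0.25 against 0.01. At 5000 counts per cell Itga2b was at 1.45 and Pf4 at 0.50, both turned in direction.

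The log2 ratio of mAG+ over mKO2high was -3.47 for Pf4 (-4.01 to -3.03), -2.50 for Selp (-3.77 to -1.59) and -1.34 for Gp9 (-1.76 to -0.94). Vwf was at 0.88, Itga2b at -0.94, Clu at -0.39 and Cd9 at -0.02. Gp1bb, which entered only through its 15 mAG+ counts in 1 cell, was at least 1.67-fold higher against the floor of 3 counts over mKO2high. By the fitted ratios 1 of 8 genes, Gp1bb, was past 2-fold higher and 3 of 8 were lower, where 26.2% of 11849 genes were higher and 17.1% lower. Both comparisons share a gate with the within-library ones, so their values are not separate evidence. Without the mKO2high cell of 70644 counts, Itga2b was at 1.45, Clu at 0.18 and Selp at -0.39. Vwf was at -0.07 at 5000 counts per cell.

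Equal depth also changed the shares of cells. With all counts, Vwf was counted in 33.3% of mAG+ cells (exact Clopper-Pearson 95% interval, 20.4% to 48.4%), against 18.8% of mKO2neg, 16.7% of mKO2low and 18.8% of mKO2high cells. At 5000 counts per cell it was counted in 15.6%, 14.0%, 12.5% and 12.8% of 45, 43, 48 and 39 cells of these gates. Cells with Vwf had a median of 58328 counts in mAG+, against 42724 in mAG+ cells without it. Clu was counted in 37.5% of mAG+ cells (23.95% to 52.6%), 8.33% of mKO2neg (2.32% to 19.98%), 8.33% of mKO2low (2.32% to 19.98%) and 12 of 48 mKO2high cells (13.6% to 39.6%). At 5000 counts it was in 9 of 45, 4 of 43, 3 of 48 and 8 of 39 cells, which keeps mAG+ and mKO2high above the other gates with overlapping intervals. Gp9 at 5000 counts was in 6 of 45 mAG+, 14 of 43 mKO2neg, 9 of 48 mKO2low and 11 of 39 mKO2high cells. For Pf4 these numbers were 7, 6, 4 and 10 cells, for Itga2b 4, 6, 3 and 4, and for Cd9 28, 22, 21 and 24.

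**Figure D3:**
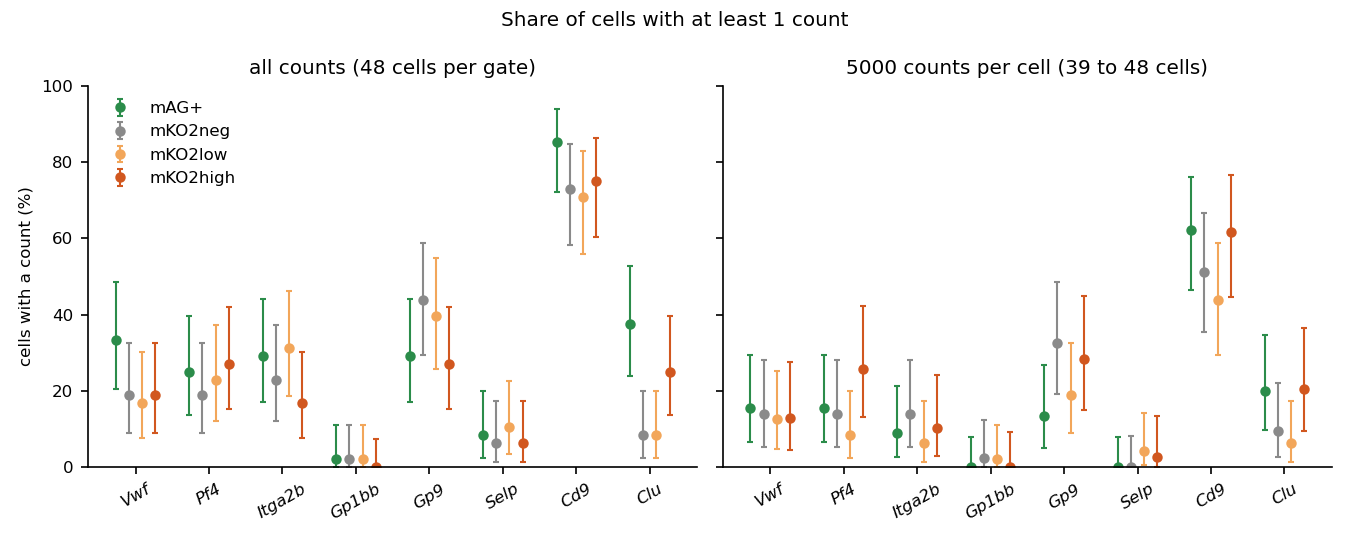
Percent of cells with at least 1 count of each gene (vertical axis) in the 4 gates, from all counts (left, 48 cells per gate) and at 5000 counts per cell (right, 39 to 48 cells), with exact Clopper-Pearson 95% intervals. Vwf in mAG+ lies at 33.3% on the left and 15.6% on the right, and Clu keeps its higher points in mAG+ and mKO2high.

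Vwf and Clu were often counted in the same cells. Of 42 cells with Vwf, 24 also had Clu (57.1%), and these were 63.2% of the 38 cells with Clu, while Clu was counted in 19.8% of all 192 cells. Cells with both numbered 11 in mAG+ and 4 in mKO2neg, and 3 in mKO2low and 6 in mKO2high. All 4 mKO2neg cells with Clu had Vwf. Cells with Clu were deeper, at a median of 45276 counts against 24563 without it. At 5000 counts per cell, each gene was counted in 24 of 175 cells (13.7%), and 10 of the 24 cells of either gene had both (41.7%).

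The same pair stood out in the correlation of per-cell CPM. Over 175 cells with at least 5000 counts, the Spearman correlation of Vwf and Clu was 0.60 in mAG+ and 0.61 in mKO2neg, and 0.47 in mKO2low and 0.51 in mKO2high, a mean of 0.55. All counts of a cell were used here, so depth was not equal. Among 8188 genes with a count in at least 24 cells, Clu had the highest mean correlation with Vwf, and Vwf the highest with Clu. The next for Vwf were Cavin2 at 0.37 and Unc45b at 0.33, and for Clu they were Trap1 at 0.33 and Med25 at 0.31. The 99th percentile of all genes was 0.21 for Vwf and 0.22 for Clu. Vwf lies on chromosome 6 and Clu on chromosome 14, and the rows they were read from are not neighbours. Cells of a gate share library and depth, so these values describe the cells and carry no test.

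**Figure D4:**
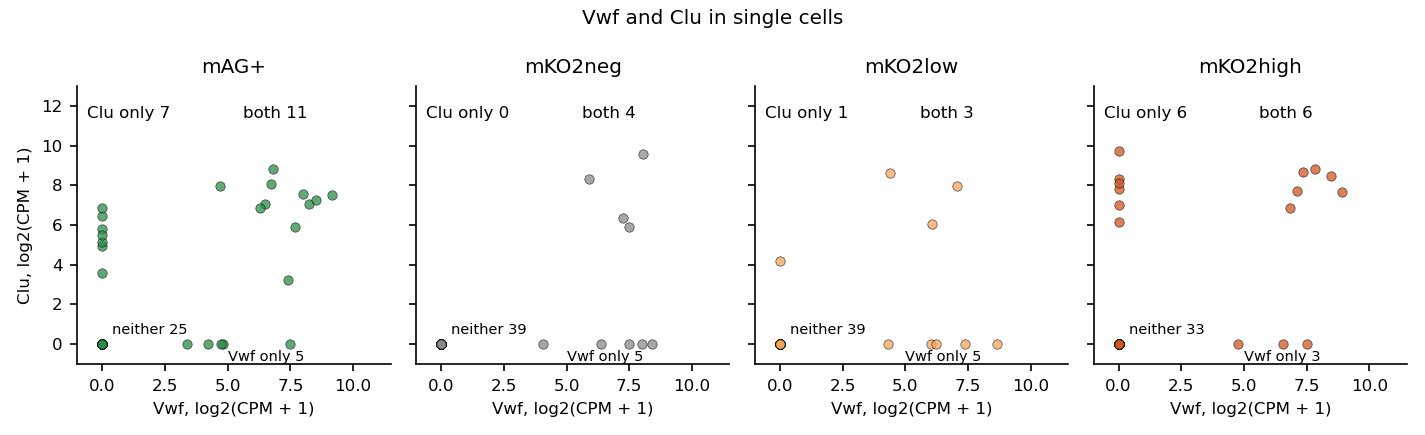
Clu (vertical axis) against Vwf (horizontal axis), both as log2(CPM + 1), in each of the 48 cells of mAG+, mKO2neg, mKO2low and mKO2high, with 1 point per cell. Cells with both genes number 11, 4, 3 and 6 in these gates, and 25, 39, 39 and 33 cells lie at the origin with neither.

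Other pairs of the 8 genes had lower correlations. Among the 6 genes with a count in at least 24 cells, the 14 other pairs had mean correlations of -0.08 to 0.12. Itga2b and Clu had the highest of these at 0.12, and Vwf and Pf4 the lowest at -0.08. Of 42 cells with Vwf, 9 also had Pf4 (21.4%), against 23.4% of all cells with Pf4. The genes most like Pf4 were Atp5s, Abr and C1rl at 0.35, 0.35 and 0.33, and those most like Itga2b were Mrpl28, Fam160b2 and 1300002E11Rik at 0.35, 0.32 and 0.29. For Gp9 they were Psmg4, Trf and Cnn2 at 0.27, 0.27 and 0.26, and for Cd9 Sypl, Zfp317 and Snap23 at 0.31, 0.30 and 0.30. Correlations of this size in sparse counts are not a finding.

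A median cell had counts of 2 of the 8 genes in every gate, and of 1 at 5000 counts per cell. No count of any of the 8 was found in 5 mAG+, 7 mKO2neg, 3 mKO2low and 7 mKO2high cells. With all counts, at least 3 of the 8 were counted in 21, 15, 14 and 17 cells of these gates, and at least 5 in 4, 2, 2 and 1 cells. Of the 9 cells with 5 or more, all had Vwf and 8 had Clu, and they held 37019 to 154479 counts. These numbers are at unequal depth. The mAG+ cells with at least 3 had a median of 73667 counts, against 36950 in the other mAG+ cells. In mKO2neg these medians were 40148 and 20330, in mKO2low 42789.5 and 26497, and in mKO2high 14478 and 16304. At 5000 counts per cell, at least 2 of the 8 were counted in 19 of 45 mAG+ and 18 of 43 mKO2neg cells. For mKO2low and mKO2high it was 12 of 48 and 19 of 39 cells. The share was then highest in mKO2high, with overlapping intervals.

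**Figure D5:**
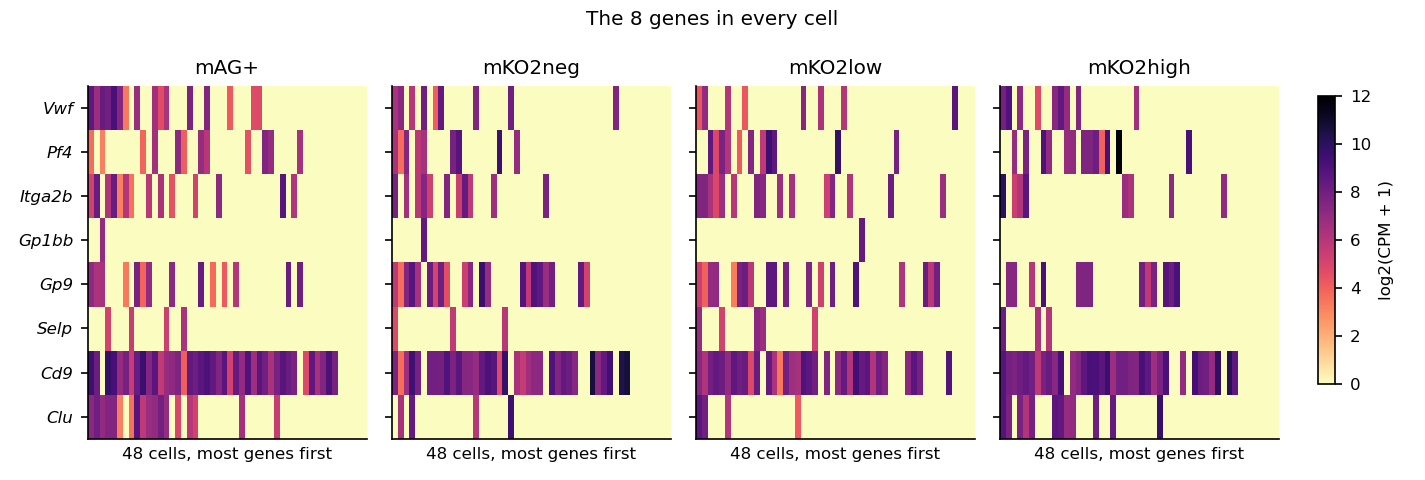
Log2(CPM + 1) of the 8 genes (rows) in each of the 48 cells (columns) of mAG+, mKO2neg, mKO2low and mKO2high, with cells sorted by the number of the 8 genes counted and darker colours for higher levels. Cd9 fills 34 to 41 cells of a gate and Gp1bb at most 1. The sorting itself moves cells with both Vwf and Clu towards the left of each panel.

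Other genes of the platelet pathway were read from fixed lists of surface receptors, of granule and cytoskeleton genes, and of transcription factors. Of 16 receptors, 12 had at least 10 counts over mAG+ and mKO2neg, with 2 past 2-fold higher and 3 lower, beside 21.2% and 14.6% of all genes, and a median log2 ratio of -0.26. Over mKO2low and mKO2high 12 did, with 4 higher and 1 lower, beside 19.6% and 15.0% of all genes, and a median of 0.12. F2r, a thrombin receptor, had 51.7 CPM in mKO2low against 18.2 in mKO2high, in 21 and 9 cells (log2 ratio 1.47). P2rx1, an ATP-gated channel of platelets, had 32.6 CPM in mAG+ against 70.2 in mKO2neg (-1.10).

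Of 15 granule and cytoskeleton genes, 10 were measured in mAG+ over mKO2neg, with 2 past 2-fold higher and 1 lower, and 9 in mKO2low over mKO2high, with 2 higher and 0 lower. These counts are near the shares of all genes given above or too few to tell from them, and the medians were -0.09 and 0.41. Srgn, the proteoglycan that packs granule contents, had 1646 CPM in mAG+ and 1931 in mKO2neg, and 1659 in mKO2low and 1570.6 in mKO2high. Gng11, a G-protein gamma subunit, had 282 CPM in mKO2low against 549 in mKO2high (-0.96). Mmrn1, the alpha granule protein multimerin, had 192 CPM in mKO2low against 289 in mKO2high (-0.59).

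All 12 transcription factors were measured in both comparisons, with medians of -0.04 for mAG+ over mKO2neg and 0.42 for mKO2low over mKO2high. Zfpm1, the GATA1 cofactor FOG1, had 50.9 CPM in mAG+ against 18.6 in mKO2neg (1.43), and 95.1 CPM in mKO2low against 50.3 in mKO2high (0.91). Gata1 itself had 0 counts in mAG+ and 13 in mKO2neg, and 13 in mKO2low and 0 in mKO2high. The 13 counts came from 4 cells in mKO2neg and from 1 cell in mKO2low. Nfe2, needed for platelet release, had 219 CPM in mAG+ and 327 in mKO2neg, and 267 in mKO2low and 299 in mKO2high. In mKO2low over mKO2high these 3 lists had medians of 0.12 to 0.42, beside 0.05 over all genes. The 11 blood stem cell markers had a median of -0.48, with 3 higher and 8 lower, where 52.2% of all genes were higher. A lower level in mKO2low was thus not particular to the 8 genes. The 7 measured genes above had -1.53, and -0.52 to -0.69 with equal weight for each cell, without the largest cells or without the mKO2high cell of 70644 counts.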

How the data were processed

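Values were the deposited raw counts, whole numbers for each row and cell, from 192 cells of a modified Smart-seq2 method with 3' end enrichment, per the labels' protocols, and they had not been normalized. HISAT2, HTSeq 0.11.3, Seurat and the build mm10 stand in the submitters' processing notes without roles. The annotation release and any use of molecular identifiers are not stated in those sources. All columns of cells were used, and no cell name occurred in both libraries. Row IDs were matched to GENCODE M21 without version suffix, which left out 105 rows with 0.222% of the counts. Each gene was then read from the row before it in M21 order.

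Counts were summed over a gate and divided by its total (CPM). Log2 ratios add a prior count of 1, scaled to gate size. Genes with at least 10 counts over both gates were measured, and a log2 ratio of 1 or more in size was called past 2-fold. Intervals are exact and cover counting error only, and the floor for 0 is 3 counts. Each gate is 1 sample, so no test was run. Medians of a list have no interval. Doublets were not called, since cells were handled singly. The members and lists were chosen with earlier results of these data known. Of each pathway list at most 5 genes were named: those past 2-fold within a library and found in at least 12 cells of the gate where they were higher, then the most abundant, and not all of them are reported here. Marker genes, the GPIb partner and Gata1 are named to show what was at or near 0. Genes alike were the 3 with the highest mean within-gate Spearman correlation. The 9 alternatives were edgeR 4.0.16 TMM factors, DESeq2 1.42.0 size factors, equal weight per cell, cells with at least 1000 genes and under 20% mitochondrial counts, 5000 counts per cell, no filter on low counts, the largest cell of each gene left out, the deepest cell left out, and the deposited labels. Another, without 1 mKO2high cell, was added after seeing the data. Python 3.11.15, numpy 2.4.6, pandas 2.3.3, scipy 1.17.1 and R 4.3.3 were used, and the steps were tested on simulated data.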

Additional observations from a re-analysis of the deposited data

How the results depend on the processing

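No paired analysis was possible because each gate is 1 sample. With 1 sample per gate, the intervals cover counting error only, and single cells can move a sum. Variation between animals, sorts and libraries could not be measured. Differences in genes as low as Selp and Gp1bb are at the limit of this depth. The TMM and size factor scalings, the filter on cells, the filter on low counts and leaving out the deepest cell moved neither a median nor a number past 2-fold out of range. Of 266 single ratios under alternatives, 215 stayed within the reported value's counting interval and 51 did not. The sign changed in 21 of the 266, over 13 different ratios, of which the 2 for Selp in mKO2low over mKO2high were past 2-fold as reported. Itga2b changed sign in all 4 comparisons, and in mAG+ over mKO2neg Gp1bb was at -1.31 with equal weight. Of 128 shares of cells, 86 stayed and 42 moved. The median for mKO2low over mKO2high, reported as -1.53, was -0.64 with equal weight per cell, -0.52 without the largest cell of each gene and -0.69 without the mKO2high cell rich in Itga2b, which was chosen after seeing the data. The median for mKO2neg over mKO2low, reported as 0.25, was 0.93 at 5000 counts per cell. The median for mAG+ over mKO2high, reported as -0.66, was -0.082 without the largest cells and reversed to 0.12 without that mKO2high cell. Selp in mKO2low over mKO2high, reported as -1.71, reversed to 0.025 with equal weight and to 0.36 without that cell. The number of genes past 2-fold in mAG+ over mKO2neg, reported as 4, was 1 at 5000 counts and 0 under the deposited labels. In mKO2low over mKO2high, reported as 4, it was 2 with equal weight and 1 under the deposited labels. In mKO2neg over mKO2low, reported as 3, it was 1 with equal weight, 1 at 5000 counts, 1 without the largest cells and 0 under the deposited labels. In mAG+ over mKO2high, reported as 4, it was 2 at 5000 counts, 2 without the largest cells and 0 under the deposited labels. Under the deposited labels only Cd9 had enough counts, and thinning left fewer counts by construction. The other causes were not tested.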

Other observations

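Genes of the liver were counted mostly in library sample1. Alb, Ttr and Apoa1, which encode serum albumin, transthyretin and apolipoprotein A-I, were picked from a list of 8 genes of other organs after their values were seen. Together they had 246 CPM in mAG+ and 72.1 in mKO2neg, and 14.7 in mKO2low and 5.35 in mKO2high, in 36, 23, 7 and 3 of 48 cells. Alb alone had 580 counts in mAG+ and 77 in mKO2neg, and 1 in mKO2low and 1 in mKO2high. Ttr had 54 counts in mAG+ and 5 in mKO2neg, and 19 in mKO2low and 1 in mKO2high, so mKO2low was above mKO2neg. Gfap, a list gene that was not picked, had 4 counts in mAG+ and 8 in mKO2high, and 0 in the other gates. All 8 genes of the list summed to 248 CPM in mAG+ and 72.1 in mKO2neg, and 14.7 in mKO2low and 13.9 in mKO2high. The part of these transcripts in the ratios of the 8 genes was not tested.

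Lymphoid markers, 8 genes, summed to 204 CPM in mAG+ and 75.8 in mKO2neg, and 9.98 in mKO2low and 24.6 in mKO2high. Dntt, the terminal transferase of early lymphocytes, had 251 counts in 2 mAG+ cells. Flt3, a receptor of early multipotent and lymphoid progenitors, was spread over 15 mAG+, 11 mKO2neg, 8 mKO2low and 3 mKO2high cells.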
